A study of Saccharomyces cerevisiae with 8 samples.

Results

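The comparison is of spo11Y135F with rad50delta, strains of diploid Saccharomyces cerevisiae in the SK1 background, at 0 h, just before the cells were moved to sporulation medium. It rests on 2 of the 8 arrays of the series, chosen by the strain and time in their titles, 1 array for each strain. The spo11Y135F strain carries a form of Spo11 in which the catalytic tyrosine is replaced by phenylalanine, and the rad50delta strain lacks RAD50. Wild type and mre11delta make up the other strains, and all 4 strains were also measured at 4 h. At 0 h both strains had been grown to the same density in presporulation medium with potassium acetate as the carbon source and with ammonium sulfate and amino acids as nitrogen sources. Both RNA samples were prepared with glass beads and RNeasy columns, and polyadenylated RNA was then selected. The labels give no further alleles or auxotrophic markers of the strains, and do not say whether the 0 h and 4 h cells of a strain came from 1 culture.

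Spo11 is the enzyme that cuts DNA to start meiotic recombination, and it stays covalently bound to the ends through its catalytic tyrosine. Rad50 forms a complex with Mre11 and Xrs2 that is needed in budding yeast for the cut itself and for removing Spo11 from the ends. Neither mutant makes meiotic breaks, and the meiotic function of Spo11 is not called on before sporulation starts, whereas Rad50 also serves break repair in dividing cells.

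The transcript levels of the 2 strains were close for most genes at 0 h. Values are array signals on a linear scale, compared as log2(signal + 7), spo11Y135F minus rad50delta, and set relative to the median gene, which read 0.40 log2 units (1.32-fold) higher in spo11Y135F as deposited. Of 5418 genes with a signal of at least 21 in at least 1 of the 2 arrays, 80.2% lay within 1.5-fold of the median gene and 95.1% within 2-fold. A difference of at least 2-fold was seen for 264 genes, 4.87% of those measured, of which 103 (1.9%) were higher and 161 (2.97%) were lower in spo11Y135F. With values as deposited the split was 469 higher (8.66%) and 53 lower (0.978%), so the count in each direction depends on the scaling. Negative differences under 0.40 in size are positive with values as deposited. With 1 array a side these counts carry no error and no test.

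The genes on the higher side included RAD50 itself, the uracil gene URA3, and genes for the uptake of ammonium and amino acids and for amino acid synthesis. The genes on the lower side included other pyrimidine genes, heat shock proteins and Hsp70 chaperones, copper and zinc transporters, and the alpha pheromone gene MF(ALPHA)1. Only 3 genes were at least 4-fold higher and 23 at least 4-fold lower. Of the 264 genes, the array with the lower value was under a signal of 21 for 27 of the higher and 59 of the lower genes, so that the size of those differences depends on the pseudocount of 7.

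**Figure D1:**
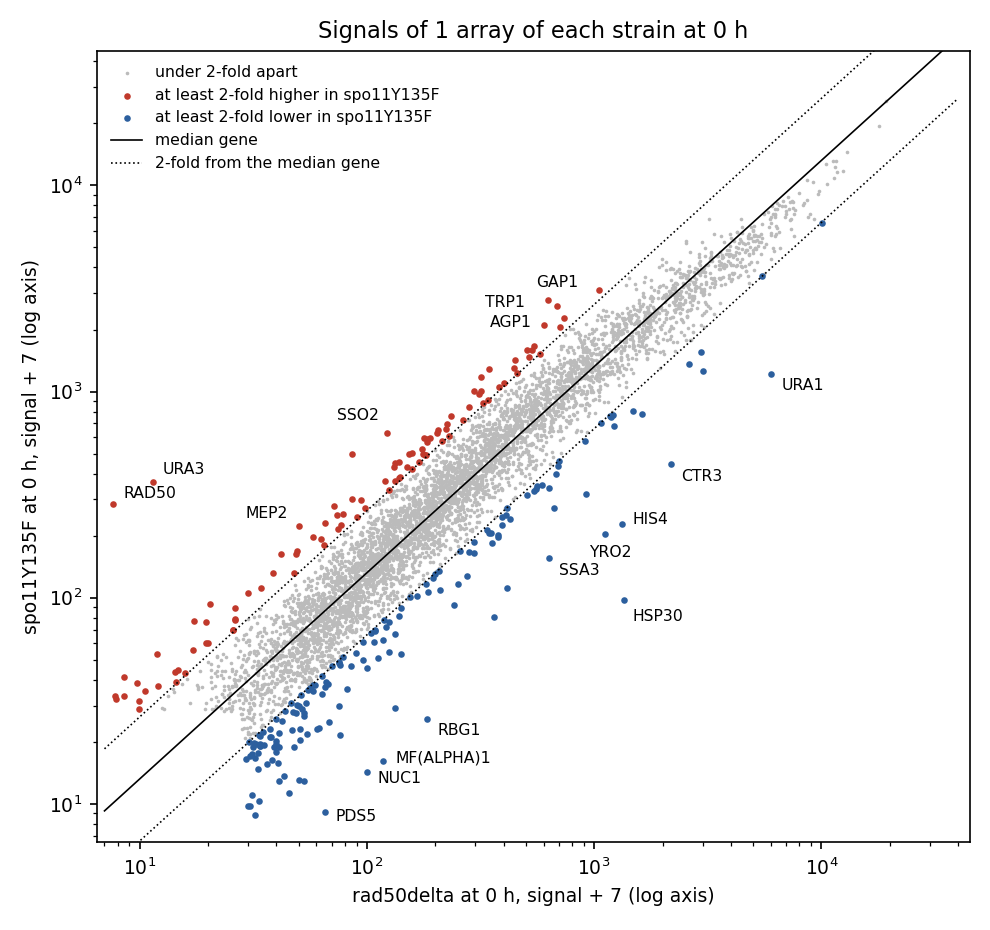
Signal + 7 of each measured gene in spo11Y135F (vertical) and rad50delta (horizontal) at 0 h, both on log axes, 1 array each. Grey points are under 2-fold from the median gene (solid line), red points are the 103 genes at least 2-fold higher and blue points the 161 genes at least 2-fold lower in spo11Y135F; RAD50 and URA3 lie farthest on the higher side and HSP30 on the lower side.

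The array medians were 131.5 in spo11Y135F and 100.1 in rad50delta, and 94.2% of genes in spo11Y135F and 93.7% in rad50delta were at or above 21. The 9 bacterial spike-in probe sets did not share the shift of the median gene, with a median difference of -0.09 as deposited and mean signals of 1608 in spo11Y135F and 1769.7 in rad50delta. The ratio of the 3' to the 5' actin probe set was 1.43 in spo11Y135F and 1.62 in rad50delta. Low signals differed more often, since 9.45% of the 1355 genes with the lowest mean signal were at least 2-fold apart, against 2.58% of the 1355 with the highest. The 479 genes whose mean signal reached 2000 had a median of -0.18, which touches the lists of abundant transcripts below. Over the 16 chromosomes the median ran from -0.12 to 0.07.

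RAD50 (YNL250W, chromosome XIV) had a signal of 276 in spo11Y135F and 0.6 in rad50delta at 0 h, and of 272 in spo11Y135F and 3.4 in rad50delta at 4 h. It read 88.4 in the array labelled mre11delta and 119 in wild type at 0 h, so it was near 0 in the strain that lacks it and in no other. The difference was 4.82 log2 units at 0 h and 5.05 at 4 h. RAD50 has 6 probe sets on the array, and 5 of them read higher in spo11Y135F, while 1 low-signal set read 6.1 in spo11Y135F and 37.7 in rad50delta. The genes beside it, NRD1 and MPA43, differed by 0.73 and 0.50.

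A test was made over both times, with strain and time fitted by limma over all 8 arrays and 3 residual degrees of freedom. With 1 array for each strain and time, its residual was the strain by time interaction over the 4 strains, not a spread between replicates. RAD50 was the 1 gene of 5475 called (0.0183%), at 4.98 ± 0.79 log2 units (SE) higher in spo11Y135F with limma's adjusted p = 0.0145, and 12 genes had an unadjusted p under 0.05. The call was lost when the arrays were centred on their medians (adjusted p = 0.999) or quantile normalized (adjusted p = 1), and with a pseudocount of 32 (adjusted p = 0.7). It was also lost without wild type at 0 h (adjusted p = 1) or at 4 h (adjusted p = 0.999), without rad50delta at 4 h (adjusted p = 0.485), with no floor (adjusted p = 0.058) and without the variance trend (adjusted p = 0.0591). No other gene passed this test, and the differences described here are pairs of values without a replicate.

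SPO11 (YHL022C) was not detectable above the floor in either strain at 0 h, with signals of 1.7 in spo11Y135F and 1.5 in rad50delta. At 4 h it read 94.2 in spo11Y135F and 469 in rad50delta, a difference of -1.93. MRE11 (YMR224C), the nuclease of the complex, read 71.1 in spo11Y135F and 45.0 in rad50delta, and 84.0 in the array labelled mre11delta and 120.5 in wild type, so that its probes do not separate that label from the rest. XRS2 (YDR369C), the third subunit, read 54.1 in spo11Y135F and 89.6 in rad50delta, a difference of -1.06. Among the 11 genes of break formation on the list, 6 were measured at 0 h. RAD50 was the 1 higher and XRS2 the 1 lower gene past 2-fold, against 1.9% and 2.97% over all genes.

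URA3 (YEL021W, chromosome V), which encodes orotidine-5'-phosphate decarboxylase, the last step to UMP, was the other gene with its own probe set that was at least 4-fold higher in spo11Y135F. Its signals were 357 in spo11Y135F and 4.4 in rad50delta at 0 h, and 91.3 in spo11Y135F and 2.5 in rad50delta at 4 h, against 486 in the array labelled mre11delta and 496 in wild type at 0 h. At 4 h wild type was near background too, at 14.8. The difference relative to the median gene was 4.60 log2 units at 0 h and 3.68 at 4 h. Over both times, on values as deposited, it was 4.18 ± 0.86 (SE), with limma's adjusted p = 0.206. Over the alternatives that adjusted p ran from 2.52e-10 to 1. URA3 passed with only the 4 arrays of the pair (adjusted p = 2.52e-10) and with a pseudocount of 1 (adjusted p = 0.0349). It also passed without mre11delta at 0 h (adjusted p = 0.00192) or 4 h (adjusted p = 0.00118), without rad50delta at 4 h (adjusted p = 0.0309) and without spo11Y135F at 0 h (adjusted p = 0.0272). A control probe set that the array carries for URA3 read 615 in spo11Y135F and 38.0 in rad50delta at 0 h, and 243 in spo11Y135F and 29.0 in rad50delta at 4 h. The 2 kinds of probe therefore put rad50delta lowest of the strains at 0 h, and URA3's neighbours TIM9 and PXP1 differed by -0.11 and 0.81.

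Among the other pyrimidine genes only URA1 and URA4 passed 2-fold, both the opposite way. URA1 (YKL216W), dihydroorotate dehydrogenase, read 1215 in spo11Y135F and 6004 in rad50delta, with 2016 in the array labelled mre11delta and 1704 in wild type, a difference of -2.70. URA4 (YLR420W), dihydroorotase, read 774 in spo11Y135F and 1618.5 in rad50delta, a difference of -1.46. rad50delta was the highest of the 4 strains for both genes at 0 h, and the differences at 4 h were -1.68 for URA1 and -1.44 for URA4. PPR1, the activator of these genes, read 54.9 in spo11Y135F and 32.1 in rad50delta, under 2-fold from the median gene at 0.26. URA2, the first enzyme of the pathway, read 1816.5 in spo11Y135F and 1669 in rad50delta, a difference of -0.28. URA7, URA8 and URA10 differed by 0.22, 0.24 and 0.15, and URA5 and URA6 by -0.36 and -0.79. Over the 17 measured genes of pyrimidine synthesis and uptake, 1 was higher and 2 were lower past 2-fold, against 1.9% and 2.97% over all genes. The list median was 0.01.

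**Figure D2:**
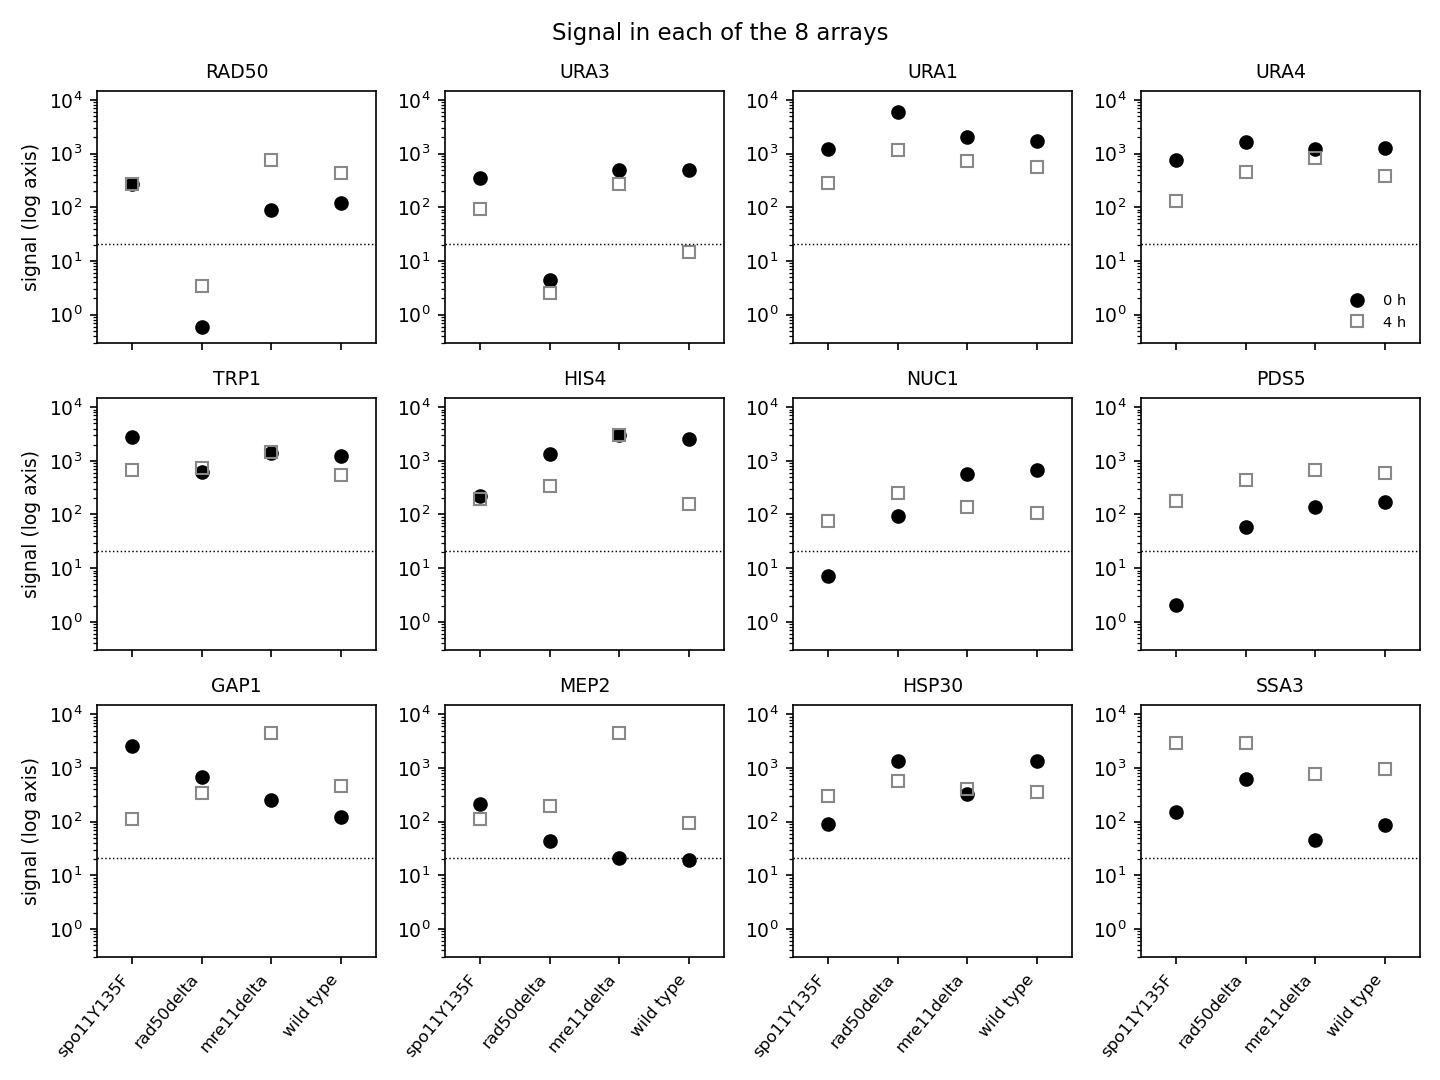
Signal of 12 genes (log axis) in each of the 8 arrays, by strain, with 0 h as black circles and 4 h as open grey squares; the dotted line is the floor of 21. RAD50 and URA3 are near background in rad50delta at both times, while URA1 and URA4 are highest in rad50delta at 0 h.

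URA3 belongs to a list of 15 strain markers, loci at which laboratory strains often carry deletions or insertions. Of these, 3 were higher and 2 lower past 2-fold, against 1.9% and 2.97% over all genes. TRP1 (YDR007W), a tryptophan synthesis enzyme, read 2758.5 in spo11Y135F and 619 in rad50delta, with 1385 in the array labelled mre11delta and 1234 in wild type. Its difference was 1.74 at 0 h and 0.16 at 4 h, and its neighbours SOK1, GAL3 and MAF1 differed the same way, by 1.27, 0.76 and 0.55. HIS4 (YCL030C), which encodes an enzyme of histidine synthesis, read 220.2 in spo11Y135F and 1323 in rad50delta, against 3049 in the array labelled mre11delta and 2581 in wild type, a difference of -2.95. Its neighbours BIK1 and RRP7 differed by -1.51 and -0.91, and those one gene further out, RNQ1 and STE50, by 0.13 and -0.06. NUC1 (YJL208C), the mitochondrial nuclease, read 7.2 in spo11Y135F and 92.8 in rad50delta, against 557 in the array labelled mre11delta and 661 in wild type. The measured neighbours of NUC1 differed the opposite way, LAA1 by 0.54, PEX2 by 0.72 and YJL206C by 1.24. spo11Y135F was thus the lowest of the 4 strains for HIS4 and NUC1, and rad50delta lay between it and the others. LEU2, LYS2, ARG4, HIS3, ADE1, ADE2 and LYP1 were all under 2-fold from the median gene.

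Nitrogen catabolite repression keeps permeases and enzymes for poor nitrogen sources low when a preferred source such as ammonium is present. Of 36 measured genes of that list, 9 were at least 2-fold higher and none was lower in spo11Y135F, against 1.9% higher and 2.97% lower over all genes. With values as deposited 16 were higher and none lower, against 8.66% and 0.978%. The list median was 0.39, and 27 genes lay above the median gene. GAP1 (YKR039W), the general amino acid permease, read 2592 in spo11Y135F and 681 in rad50delta, with 256 in the array labelled mre11delta and 125 in wild type, a difference of 1.51. MEP2 (YNL142W), the high-affinity ammonium transporter, read 215 in spo11Y135F and 43.4 in rad50delta, with 20.8 in the array labelled mre11delta and 19.1 in wild type, a difference of 1.74. For both genes spo11Y135F was the highest of the strains and rad50delta came next. Extraction and strain cannot be told apart in the gap to the array labelled mre11delta and wild type, which were prepared with Trizol at 0 h.

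MEP1, another ammonium transporter, read 1277 in spo11Y135F and 336 in rad50delta, 2.83-fold apart relative to the median gene, and AGP1, a broad amino acid permease, read 2087 in spo11Y135F and 592 in rad50delta (1.40). DAL5, the allantoate permease, read 647 in spo11Y135F and 198 in rad50delta (1.27). DAL3, an enzyme of allantoin breakdown, read 104 in spo11Y135F and 27.2 in rad50delta (1.30). Besides these, the di- and tripeptide transporter PTR2 (1.28), the oligopeptide transporter OPT1 (1.07) and the arginine permease CAN1 (1.01) passed 2-fold. Thus 8 of the 9 genes encode transporters and 1 an enzyme, and CAN1 was also counted among the strain markers. Enzymes of proline use on the same list did not pass: PUT1 read 4094 in spo11Y135F and 2919.9 in rad50delta, a difference of 0.08. The GATA activators GLN3 (0.05) and GAT1 (0.28) were near the median gene. BAP2 and BAP3, permeases for branched-chain amino acids that stood on no list and were picked after their values were seen, differed by 1.26 and 1.22.

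**Figure D3:**
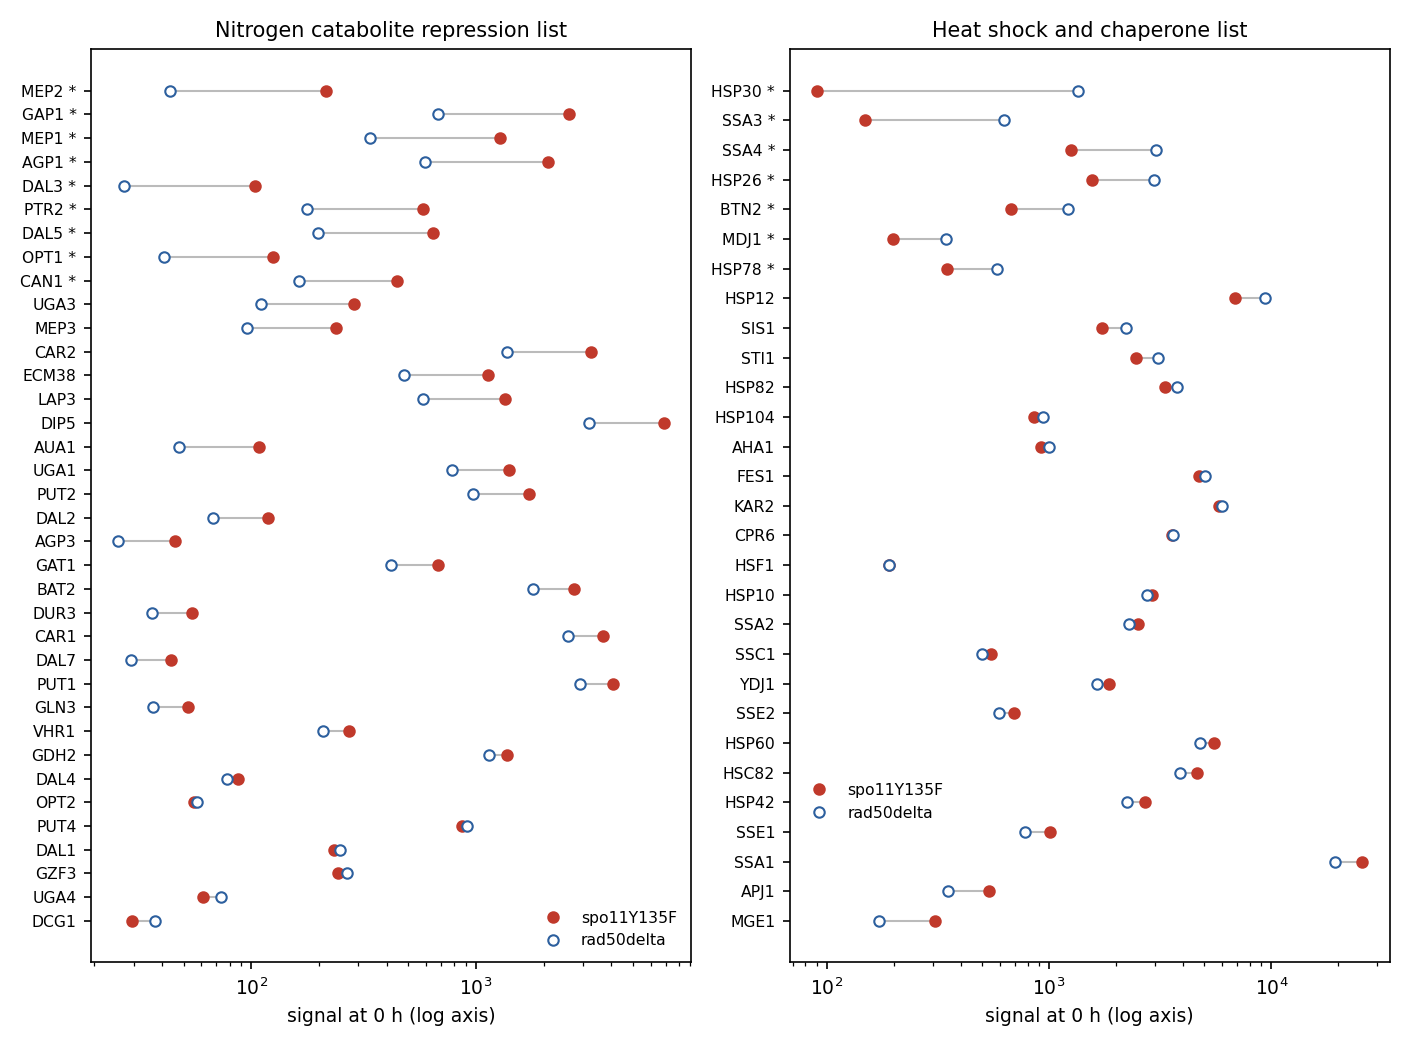
Signal at 0 h (log axis) of every measured gene of the nitrogen catabolite repression list (left) and of the heat shock and chaperone list (right) in spo11Y135F (filled red) and rad50delta (open blue), 1 array each. Genes with a star are at least 2-fold from the median gene; 9 on the left are higher and 7 on the right are lower in spo11Y135F.

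Of 62 measured genes of amino acid synthesis under the activator Gcn4, 9 were at least 2-fold higher and 2 lower in spo11Y135F, against 1.9% and 2.97% over all genes. With values as deposited 21 were higher and 2 lower, against 8.66% and 0.978%. The list median was 0.30 and 48 genes lay above the median gene, most of them by less than 2-fold. ILV2 (YMR108W), acetolactate synthase, read 1576 in spo11Y135F and 498 in rad50delta, with 1281 in the array labelled mre11delta and 1390.0 in wild type, a difference of 1.25. LEU1, isopropylmalate isomerase, differed by 1.20 and ARG1, argininosuccinate synthetase, by 1.13. For ILV2 and ARG1 rad50delta was the strain that stood below the other 3. ARO7, ARG7, ARO3, ILV3 and TRP4 also passed, at 1.04 to 1.21. The largest of the 9 was TRP1, at 1.74. The lower genes were HIS4 and SER2, a phosphoserine phosphatase that read 85.4 in spo11Y135F and 235 in rad50delta, a difference of -1.79. TRP1 and HIS4 were also counted among the strain markers. GCN4 itself read 4831 in spo11Y135F and 4642 in rad50delta, a difference of -0.34.

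In sulfur assimilation 2 of 34 measured genes were higher and none lower, against 1.9% and 2.97% over all genes. They were MET14, adenylylsulfate kinase (589 in spo11Y135F and 172 in rad50delta, 1.34), and MET2, which makes O-acetylhomoserine (377 in spo11Y135F and 133 in rad50delta, 1.05). SNZ1 and SNO1, divergent neighbours that act in pyridoxine synthesis and are known from stationary phase, were both higher (SNO1 was picked after its values were seen). SNZ1 read 3117 in spo11Y135F and 1039.6 in rad50delta, against 28.8 in the array labelled mre11delta and 53.9 in wild type. The difference was 1.18 for SNZ1 and 1.06 for SNO1, smaller than the distance of both strains from the other strains. The rest of the stationary phase list did not share their direction. Of its 23 measured genes these 2 were higher and 3 lower (YRO2, SSA3 and AQY1), against 1.9% and 2.97% over all genes. The list median was -0.32, or 0.08 as deposited, and 18 genes lay below the median gene. BIO2, biotin synthase, read 294 in spo11Y135F and 79.2 in rad50delta (1.40).

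Of 29 measured heat shock and chaperone genes, 7 were at least 2-fold lower and none higher in spo11Y135F, against 2.97% lower over all genes. The list median was -0.45, and 26 genes lay below the median gene. With values as deposited 3 were lower and none higher (0.978% lower over all genes), and the median was -0.05. HSP30 (YCR021C), a membrane protein induced by stress and weak acids, had the largest negative difference of all genes. It read 90.2 in spo11Y135F and 1351 in rad50delta, with 324 in the array labelled mre11delta and 1326 in wild type, a difference of -4.21. spo11Y135F was thus the lowest array, and rad50delta was level with wild type. The related membrane protein YRO2 read 197 in spo11Y135F and 1114 in rad50delta (-2.86). Their relative MRH1, picked after its values were seen, read 311 in spo11Y135F and 914 in rad50delta (-1.94).

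SSA3, an Hsp70 of stressed and starved cells, read 148.5 in spo11Y135F and 624 in rad50delta (-2.42), and SSA4, its stress-inducible relative, read 1248 in spo11Y135F and 3017 in rad50delta (-1.67). The small heat shock protein HSP26 read 1553.5 in spo11Y135F and 2961 in rad50delta (-1.33). BTN2 (-1.25), the mitochondrial chaperones MDJ1 (-1.17) and HSP78 (-1.14) made up the rest of the 7. Other chaperones lay closer: HSP82, whose probe set is shared with a relative and therefore uncertain, differed by -0.58, HSC82 by -0.14 and SSC1 by -0.27. HSF1, the heat shock activator, read 189.8 in spo11Y135F and 191 in rad50delta. None of the 37 measured genes of the general stress list under Msn2 and Msn4 passed 2-fold, against 4.87% of all genes. Their median was at the median gene.

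Several transporters of copper and zinc were lower in spo11Y135F. CTR3 (YLR411W), a high-affinity copper transporter, read 437 in spo11Y135F and 2169 in rad50delta, with 7675 in the array labelled mre11delta and 6600.0 in wild type, a difference of -2.70. CTR1, the other high-affinity copper transporter, read 264.5 in spo11Y135F and 662 in rad50delta (-1.70). The plasma membrane zinc transporters ZRT1 and ZRT2 differed by -1.28 and -1.21, and the other probe sets of ZRT1 by -0.53, -1.11 and -0.89. These 4 transporters were the lower genes among 19 measured of the zinc and copper regulons, and none was higher, against 2.97% and 1.9% over all genes. The list median was 0.002, with 10 genes above and 9 below the median gene. The deposited values, without centring, gave 2 lower and 2 higher, against 0.978% and 8.66% over all genes. MAC1, the copper-sensing activator, differed by -0.25. Of 32 measured genes of the iron regulon 2 were lower, against 2.97% over all genes, and the list median was -0.35. They were FET4, a low-affinity iron transporter (190.4 in spo11Y135F and 370 in rad50delta, -1.33), and FIT2, a cell wall mannoprotein (-1.01). Without the centring none of the 32 was lower and 1 was higher, against 0.978% and 8.66% over all genes, and the median was 0.05.

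Of 25 measured genes of the phosphate regulon list 2 were higher and 1 lower past 2-fold, against 1.9% and 2.97% over all genes. The list median was 0.13, and 19 genes lay above the median gene. GIT1, which takes up glycerophosphoinositol, read 156 in spo11Y135F and 41.5 in rad50delta (1.35), and PHO87, a low-affinity phosphate transporter, read 1521 in spo11Y135F and 571 in rad50delta (1.00). PHO3, a secreted acid phosphatase that acts on thiamine phosphates, read 105 in spo11Y135F and 407 in rad50delta (-2.29). PHO84, the high-affinity transporter, read 7162 in spo11Y135F and 6218 in rad50delta, against 71.8 in the array labelled mre11delta and 80.3 in wild type, and differed between these 2 strains by -0.20.

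Of 37 measured genes of peroxisomes and fatty acid oxidation 31 lay above the median gene, with a list median of 0.40. Past 2-fold 1 was higher and 1 lower, against 1.9% and 2.97% over all genes. As deposited, 10 were higher and 1 lower, against 8.66% and 0.978% over all genes. The higher gene was YAT2, a carnitine acetyltransferase, at 1169.8 in spo11Y135F and 310.3 in rad50delta (1.49), and the lower gene was PEX25, a peroxisomal membrane protein, at 14.7 in spo11Y135F and 68.8 in rad50delta (-2.21). FOX2, the multifunctional enzyme of beta-oxidation, read 3487 in spo11Y135F and 1771 in rad50delta (0.57).

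CYC1, iso-1-cytochrome c, read 997 in spo11Y135F and 289.8 in rad50delta (1.36), and both lay below 6534 in the array labelled mre11delta and 5573 in wild type. CCP1, cytochrome c peroxidase, read 441 in spo11Y135F and 126 in rad50delta (1.35). HAP1, the heme-responsive activator of CYC1, picked after its values were seen, read 248 in spo11Y135F and 71.1 in rad50delta (1.31), but its 2 other sets, which are shared, read lower in spo11Y135F, at -0.92 and -1.18. Over 42 measured genes of the respiratory chain and ATP synthase CYC1 was the 1 higher gene and AAC3 the 1 lower. The shares over all genes were 1.9% and 2.97%. AAC3 read 9.3 in spo11Y135F and 31.4 in rad50delta (-1.64). The list median was -0.32, or 0.08 with values as deposited.

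Glycolytic genes had 1 lower gene among 23 measured and none higher, against 2.97% and 1.9% over all genes. It was PGK1, phosphoglycerate kinase, at 6595 in spo11Y135F and 10033.5 in rad50delta (-1.01). The list median was -0.45, and -0.12 after quantile normalization of the 2 arrays. As deposited, it was -0.05, and 2 genes were higher and none lower, against 8.66% and 0.978% over all genes. Ribosomal protein genes had medians of -0.27 (large subunit, 47 measured) and -0.30 (small subunit, 34 measured), which became 0.14 and 0.10 with values as deposited and -0.06 and -0.09 after quantile normalization. The 1 gene among them past 2-fold, against 4.87% of all genes, was RPL7B. It had only a probe set shared with its paralog and is uncertain. These lists hold the most abundant transcripts, whose median difference was negative as a class, and the part of signal level in their medians was not tested.

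**Figure D4:**
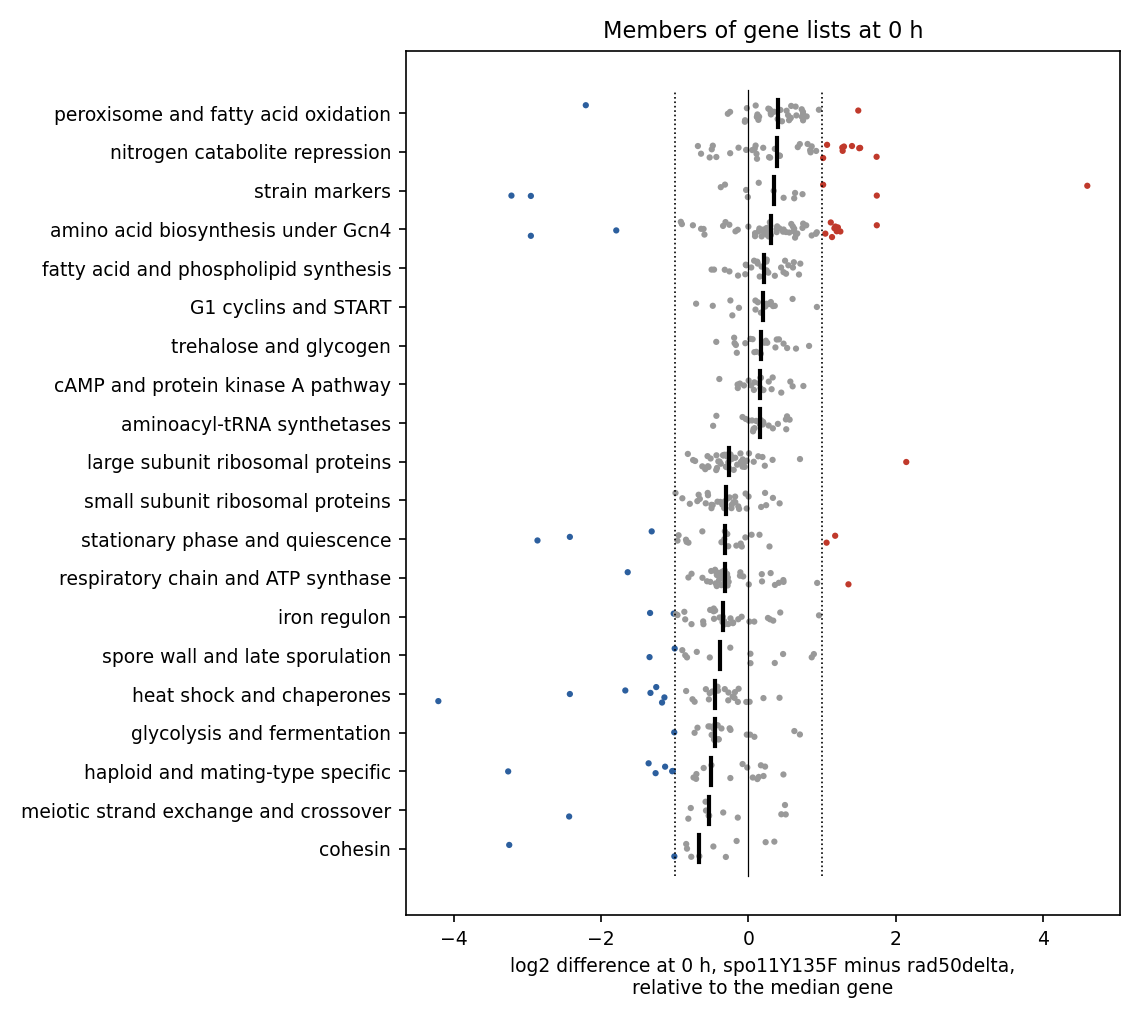
Difference at 0 h (log2, spo11Y135F minus rad50delta, relative to the median gene) of each measured gene of 20 gene lists, those with the highest and the lowest medians among lists with at least 10 measured genes. Thick bars are list medians, dotted lines mark 2-fold, and red and blue points are genes at least 2-fold higher or lower; no list median lies beyond -0.67 or 0.40.

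Over all 52 lists the medians ran from -0.67 to 0.40, 18 above and 34 below the median gene, and 20 lists held no gene past 2-fold. With values as deposited 27 of the medians had the opposite sign. Ribosome biogenesis kept its sign, with a median of 0.12 over 81 measured genes, or 0.52 as deposited. Of these genes 1 was higher and none lower, against 1.9% and 2.97% over all genes. The higher gene was the RNA helicase DBP2 at 1.21.

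The markers of cell type were read as a check of the labelled diploid, premeiotic state. Of 25 haploid and mating-type specific genes on the array 21 were measured, 6 of them lower and none higher in spo11Y135F, against 2.97% lower over all genes, with a median of -0.50. With values as deposited 1 was lower, against 0.978% over all genes, and the median was -0.10. Their summed signals were 2266 in spo11Y135F and 1988 in rad50delta. The receptor gene STE2 was below 21 in both strains, at 16.7 in spo11Y135F and 17.4 in rad50delta. Other members were well above 21 in both: STE4 read 854.8 in spo11Y135F and 551.0 in rad50delta, and FUS1 250.1 in spo11Y135F and 189.8 in rad50delta. Relative to the median gene 7 members lay above and 14 below, the highest being STE6 at 0.47. MF(ALPHA)1 (YPL187W), the alpha pheromone precursor, read 9.2 in spo11Y135F and 110.4 in rad50delta, with 2.3 in the array labelled mre11delta and 147 in wild type, a difference of -3.26. The alpha pheromone transcript was thus near background in 2 strains and above 100 in the other 2. The MAP kinase gene FUS3 (-1.35), BAR1, a protease that degrades alpha pheromone (-1.13), AGA2, an agglutinin subunit (-1.03), RME1, a repressor of meiosis (-1.03), and MFA1 (-1.26, from a shared probe set and therefore uncertain) made up the rest. A second probe set of FUS3 differed by -0.43, with signals of 40.9 in spo11Y135F and 41.9 in rad50delta. In RNA from a whole culture, fewer cells of a kind and less RNA per cell cannot be told apart, and the part of cell makeup in the differences above was not tested.

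Meiotic entry genes differed little between the strains. IME1 (YJR094C), the master regulator of entry, read 5576 in spo11Y135F and 4896 in rad50delta, against 514 in the array labelled mre11delta and 699 in wild type, a difference of -0.21. IME2, the kinase it activates, read 106 in spo11Y135F and 73.1 in rad50delta (0.09). Of 12 entry regulators only RME1 passed 2-fold, as a lower gene, against 2.97% lower over all genes. DMC1, the meiotic strand exchange protein, read 362 in spo11Y135F and 189.8 in rad50delta (0.51), and REC8, the meiotic cohesin subunit, read 27.1 in spo11Y135F and 39.0 in rad50delta (-0.83). None of the 22 measured genes of the mitotic G2/M cluster passed 2-fold, against 4.87% of all genes, and the list median was -0.05.

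Later meiotic genes past 2-fold were lower in spo11Y135F, most of them at low signals. MLH3, a MutL protein of crossover formation, read 5.9 in spo11Y135F and 45.7 in rad50delta (-2.43). PCH2, a meiotic checkpoint ATPase, read 10.8 in spo11Y135F and 32.7 in rad50delta (-1.56), and GIP1, a phosphatase subunit of spore formation, read 3.3 in spo11Y135F and 26.6 in rad50delta (-2.11). AMA1, a meiotic activator of the anaphase-promoting complex, read 10.6 in spo11Y135F and 26.0 in rad50delta (-1.31). In each of these 4 genes spo11Y135F was below the floor of 21. Of 22 measured middle sporulation genes 2 were lower, against 2.97% over all genes. Of 14 measured spore wall and late genes 2 were lower, against the same share, both above the floor in both arrays. SPS100, a spore wall protein, read 102 in spo11Y135F and 203 in rad50delta (-1.34), and differed by -1.48 at 4 h. LDS1, a lipid droplet protein of sporulation, read 23.7 in spo11Y135F and 39.5 in rad50delta, just past 2-fold.

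Cohesin genes had the lowest list median, -0.67 over 11 measured. Past 2-fold 2 were lower and none higher, against 2.97% and 1.9% over all genes. PDS5 (YMR076C), a regulator of cohesin, read 2.1 in spo11Y135F and 58.3 in rad50delta, with 136 in the array labelled mre11delta and 169 in wild type, a difference of -3.24. ESP1, separase, read 39.4 in spo11Y135F and 63.5 in rad50delta (-1.01). PDS5 was thus lowest in spo11Y135F and next lowest in rad50delta, the order also seen for HIS4 and NUC1. The core subunits were under 2-fold, with SMC3 at 128 in spo11Y135F and 156 in rad50delta (-0.67) and SMC1 at -0.84.

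Further genes among the 12 largest in each direction belonged to no list. SSO2, a plasma membrane SNARE of secretion, read 623 in spo11Y135F and 116 in rad50delta (1.96), and MDM1, an organelle-tethering protein, read 86.7 in spo11Y135F and 13.3 in rad50delta (1.80). RBG1, a GTPase bound to ribosomes, read 18.9 in spo11Y135F and 177.5 in rad50delta, with 682 in the array labelled mre11delta and 672 in wild type (-3.23). MSD1, the mitochondrial aspartyl-tRNA synthetase, read 22.2 in spo11Y135F and 125.5 in rad50delta, with 358 in the array labelled mre11delta and 405 in wild type (-2.58). For these 2 lower genes the order of the strains was again spo11Y135F, then rad50delta, then the others.

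The genes were also set beside the other 0 h arrays, wild type and the one labelled mre11delta, with all arrays centred on the median gene. Both of those arrays were made from Trizol extracts, unlike this pair, so strain and extraction cannot be told apart here. Of the 103 higher genes, spo11Y135F was at least 2-fold above both for 32, rad50delta was at least 2-fold below both for 40, both held for 1 and neither for 30. Over all measured genes spo11Y135F was above both for 13.7% and rad50delta below both for 13%. Of the 161 lower genes, spo11Y135F was below both for 64, rad50delta above both for 35, both held for 0 and neither for 62. Over all measured genes these shares were 14.5% for spo11Y135F and 11.8% for rad50delta. The 264 genes were selected for the gap between the strains, so nothing is read from these counts. GAP1, MEP2, NUC1 and PDS5 had their extreme in spo11Y135F, and RAD50, URA3 and URA1 theirs in rad50delta.

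The other arrays of the same strains, at 4 h, gave a check of which differences were present at both times. At 4 h 601 genes (10.9%) were at least 2-fold higher and 571 (10.4%) lower in spo11Y135F, and 78.6% of genes lay within 2-fold of the median gene, against 95.1% at 0 h. Of the 103 genes higher at 0 h, 13 were higher at 4 h too, 12.6% of the 0 h genes and 2.16% of the 4 h genes, while 14 were lower at 4 h. Of the 161 genes lower at 0 h, 17 were lower at 4 h too, 10.6% of the 0 h genes and 2.98% of the 4 h genes, while 20 were higher at 4 h. The share with the same direction at both times was thus close to the background of 10.9% and 10.4% at 4 h. Genes 2-fold apart the same way at both times made up 0.243% (higher) and 0.318% (lower) of the 5345 genes measured at both times.

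Besides RAD50 and URA3, the genes higher at both times included ROG1, a lipase, with 156 in spo11Y135F and 34.9 in rad50delta at 0 h (1.55) and a difference of 2.07 at 4 h. MRK1, a kinase of the GSK-3 family, differed by 1.30 at 0 h and 1.35 at 4 h, but its second probe set differed by 0.12 at 0 h. IXR1, a DNA-binding protein of the hypoxic response, differed by 1.18 and 1.26, and PTR2 by 1.28 and 1.01. The genes lower at both times included URA1, URA4, PGK1, RME1, NUC1 (-3.21 at 0 h and -1.38 at 4 h) and AIM33, which read 5.9 in spo11Y135F and 33.9 in rad50delta at 0 h (-2.07) and differed by -1.43 at 4 h.

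Several of the gene groups described at 0 h had medians of the opposite sign at 4 h. The list median of nitrogen catabolite repression was -0.41 at 4 h, that of peroxisomes and fatty acid oxidation -0.86, and that of heat shock and chaperones 0.37. As deposited, the median gene differed by 0.40 at 0 h and by -0.30 at 4 h, so the sign of a small median depends on the centring. GAP1 read 110.1 in spo11Y135F and 339 in rad50delta at 4 h (-1.26), and BAP2 and BAP3 differed by -1.38 and -2.33. HSP30 read 307.5 in spo11Y135F and 572.5 in rad50delta at 4 h (-0.58), and SSA3 2914 in spo11Y135F and 2878 in rad50delta (0.32).

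**Figure D5:**
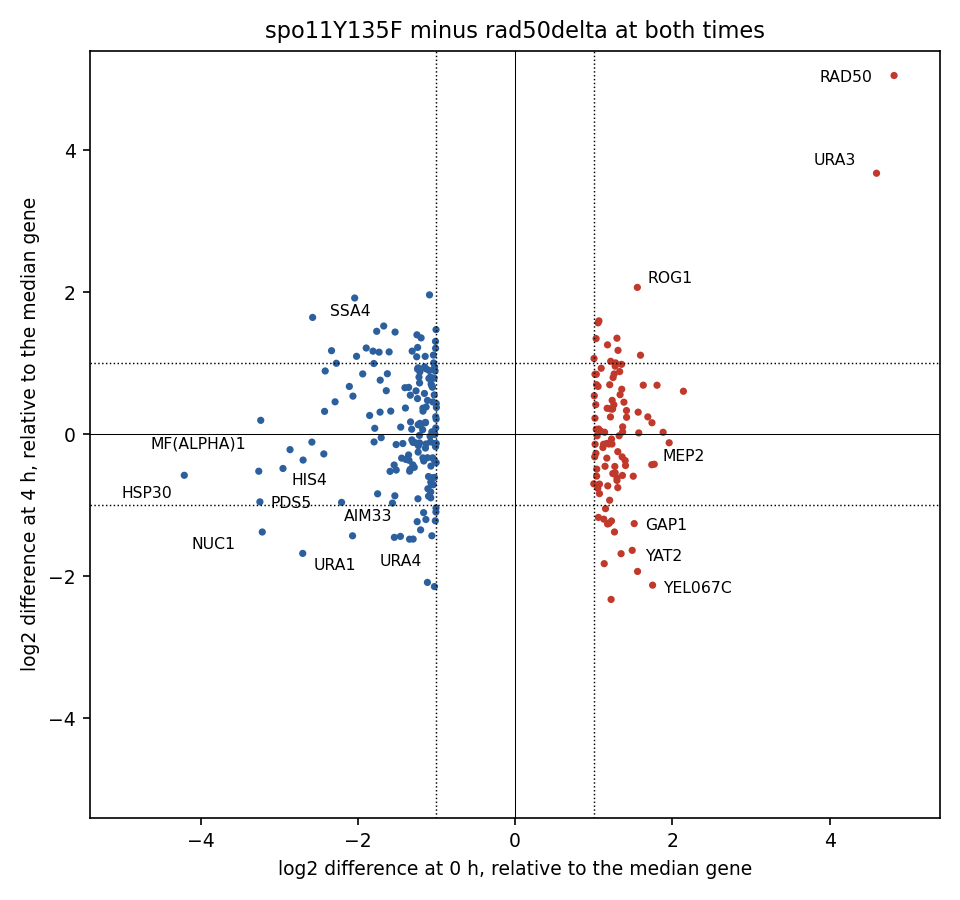
Difference (log2, spo11Y135F minus rad50delta, relative to the median gene) at 4 h against that at 0 h for the 264 genes at least 2-fold apart at 0 h, red for higher and blue for lower at 0 h; dotted lines mark 2-fold. RAD50 and URA3 lie far out at both times, and 30 genes in all lie past 2-fold the same way at both times.

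Where a gene had several probe sets these often disagreed. Of 277 genes with at least 2 measured probe sets the sign differed between sets for 123. Of the 16 genes at least 2-fold apart among them, 10 had the same sign in every set and 2 were 2-fold apart in every set. DBP2 was 1 of those 2, at 1.21 and 1.26, whereas DAL5 had sets at 1.27, 1.07 and -0.35, the last with signals of 42.5 in spo11Y135F and 40.8 in rad50delta. Probe sets with no gene name in the annotation differed more often than genes, with 68 higher and 261 lower of 1478 measured, 22.3% in all.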

How the data were processed

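Polyadenylated RNA of each strain and time was hybridised to an Affymetrix yeast array, 1 array per sample. The intensity values deposited by the authors are linear signals made with MAS5, per the submitters' processing notes; version and scaling target: not given in the sources used here. Of 9335 probe sets, 6504 named 1 gene, 328 several and 2503 none. A gene was represented by a gene-specific probe set where it had one and otherwise by a shared set, which is uncertain (211 of 5656 genes), and by the set with the highest mean signal where several remained. Differences are log2(signal + 7), spo11Y135F minus rad50delta, minus the median over genes with a signal of at least 21 in the higher array. With 1 array a side no error can be given for 0 h; the number of arrays limits the precision. Strain and time were fitted over all 8 arrays with limma 3.58.1 (R 4.3.3; empirical Bayes with trend, Benjamini-Hochberg adjustment, threshold 0.05), tested on simulated data. With 1 array for each strain and time, the residual is the strain by time interaction over the 4 strains. It also holds the change of wild type from Trizol at 0 h to glass beads at 4 h. The reported fit used log2(signal + 7) as deposited, without centring on the median gene. The p-values weigh the strain difference shared by both times against the departure of these arrays from additive strain and time effects. Nothing says that arrays came from separate cultures, so they do not measure a spread between cultures. Tables and plots were made with Python 3.11.15, numpy 2.4.6, pandas 2.3.3 and matplotlib 3.10.9. Genes were named by rule: among genes with their own probe set, the 12 largest differences each way, up to 4 per list past 2-fold, the 6 most different each way at both times, up to 8 each way with the lowest adjusted p over both times, and the mutated and marker genes; others were added as list members near the median gene or as said in the text. The genes and lists were chosen with earlier results of these data known. RNA was extracted with Trizol for wild type at 0 h and both mre11delta arrays, and with glass beads for the other 5 arrays. Alternatives varied the centring, normalization, pseudocount, floor, probe sets and arrays.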

Additional observations from a re-analysis of the deposited data

Results flagged for a closer look

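Some genes at least 2-fold apart at 0 h were at least 2-fold apart the opposite way at 4 h; with 1 array for each strain and time the difference between the times was not tested. Of the genes higher in spo11Y135F at 0 h, the difference at 4 h was -1.26 log2 units for GAP1, -1.63 for YAT2, -1.68 for GIT1 and -1.26 for SNZ1. YEL067C, an uncharacterized reading frame, read 69.8 in spo11Y135F and 10.3 in rad50delta at 0 h (1.75) and had a difference of -2.12 at 4 h. Of the genes lower at 0 h, the difference at 4 h was 1.47 for ESP1, 1.17 for AMA1 and 1.52 for SSA4.

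List medians relative to the median gene also had the opposite sign at 4 h, and this was not tested either. The median gene itself differed by 0.40 at 0 h and by -0.30 at 4 h as deposited, so the sign of a small median depends on the centring. As deposited, the 0 h medians were 0.10 for small subunit ribosomal proteins, -0.05 for heat shock and chaperones and -0.10 for haploid and mating-type specific genes. The 4 h medians relative to the median gene were 0.36 for small subunit ribosomal proteins, -0.86 for peroxisomes and fatty acid oxidation and 0.37 for heat shock and chaperones. They were -0.41 for nitrogen catabolite repression and 0.47 for haploid and mating-type specific genes.

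The URA3 control probe set, which is not among the gene probe sets compared, read 615.1 in spo11Y135F and 38.0 in rad50delta at 0 h.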

How the results depend on the processing

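The 264 genes past 2-fold at 0 h (103 higher, 161 lower) became 522 (469 higher, 53 lower) as deposited, 128 (59 higher, 69 lower) with a pseudocount of 32, 168 (98 lower) with the higher array at 70 or more, and 26 (3 higher, 23 lower) at 4-fold; 103 were lower with both arrays at 21 or more. After quantile normalization 235 passed, 200 of them among the 264. The 30 genes past 2-fold the same way at both times became 12 with a pseudocount of 32, 17 with both arrays at 21 or more, 18 with the floor at 70 and 2 at 4-fold. For the 78 named genes past 2-fold, 37 of 468 values under 6 alternatives of scaling, pseudocount and probe sets moved by over 1.5 times and 0 turned sign. As deposited 27 of 52 list medians had the opposite sign, for example 0.05 for iron, 0.19 for middle sporulation genes, 0.14 and 0.10 for large and small subunit ribosomal proteins. Strand exchange, at -0.54, was 0.40 with the floor at 70, and the zinc and copper and the pyrimidine medians, near 0, turned sign under several settings. The limma count of 1 became 2 with only the 4 arrays of the pair (1 residual degree of freedom) or a pseudocount of 1, and 0 with median centring (31 genes at an unadjusted p under 0.05), quantile normalization (29), a pseudocount of 32 (13), no floor (18) or no trend (7). Leaving out 1 array gave 0 to 8 genes, the 8 without spo11Y135F at 0 h and 0 without wild type at 0 h or 4 h, the lone remaining array of a strain being assumed to vary like the others. RAD50's adjusted p ran from 2.2e-14 to 1. No paired analysis was possible because each strain has 1 array at each time and the labels give no replicate numbers. Low signals, with 1 array a side, limit the size of differences near the floor.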
